A study of Caenorhabditis elegans with 32 samples.

Results

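RNA bound to muscle ribosomes was compared between worms fed dimt-1 RNAi and worms fed control RNAi. The comparison used 8 of the 32 libraries of the series, the 4 control and the 4 dimt-1 libraries of the muscle ribosome pull-down (translating ribosome affinity purification, TRAP). Ribosome-bound RNA was taken as measured, without division by total RNA. The members were all genes with 10 or more counts in each of the 8 libraries, which left 8416 of the 46748 genes in the table.

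All worms were of the strain WBM1339, which carries FLAG-tagged ribosomes in muscle, and the control worms carried this tag as well. Synchronized L1 larvae, hatched from bleached eggs, were moved to control or dimt-1 RNAi plates and harvested as young adults (YA), when ribosomes were pulled down with an anti-FLAG antibody. The series sets this experiment up as a control for the study of dimt-1 in the germline, and total RNA of whole-worm lysates of the same strain was sequenced alongside. The promoter that drives the tag is not given in the sources used here, nor is the number of worms per library, and each replicate is labelled a biological replicate.

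DIMT-1 is the enzyme that places dimethyl marks on adjacent adenosines near the 3′ end of 18S rRNA, the RNA of the small ribosomal subunit. The mark is made during ribosome assembly and is found from bacteria to humans. In TRAP, a tag on the ribosome of a single tissue lets the mRNAs of that tissue be pulled out with their ribosomes from a lysate of whole animals, so that a gene's level reflects both its mRNA and how much of it sits on ribosomes. Fewer muscle cells and less bound RNA per cell cannot be told apart in such bulk samples.

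The pull-down held muscle RNA. The 12 thick filament genes summed to 38595 to 47250 CPM (counts scaled to the library's TMM-normalized size) in the control TRAP libraries and to 3772 to 4240 CPM in control total RNA. The 18 thin filament genes summed to 123110 to 158330 CPM in control TRAP and 9334 to 10119 CPM in control total RNA. Markers of other tissues were also present: the 11 intestinal genes summed to 645.7 to 810.4 CPM in control TRAP against 2726 to 3062 CPM in total RNA, and the 14 neuronal genes to 207.9 to 281.2 against 447.5 to 497.7 CPM. The 6 yolk protein genes (vitellogenins), which the intestine expresses, summed to 10910 to 15015 against 42123 to 48843 CPM. The 156 cuticle collagen genes summed to 14287 to 16717 against 48518 to 54931 CPM. For the 6 pharyngeal muscle genes the sums were 55.9 to 83.6 against 212.1 to 241.4 CPM. In the germline and oocyte list, 2 eggshell genes were far above their whole-worm level, perm-2 by 4.16 and perm-4 by 3.66 on the log2 scale. The other 23 genes of that list summed to 3516 to 4535 CPM in control TRAP and 19924 to 20159 CPM in control total RNA.

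Several libraries stood apart in ways that touch every result. The 4 control libraries had 205 to 535 genes with 1 to 20 counts, the library labelled dimt-1 replicate 3 had 204, and dimt-1 replicates 1, 2 and 4 had 3248 to 3674. The total counts, 34794250 to 49782576 per library, did not separate in this way. In a principal component analysis, dimt-1 replicate 3 lay at 0.50 on the first component (24.7% of the variance), where the controls ran from −48.5 to −0.73 and the remaining dimt-1 libraries from 15.03 to 29.04, and at 53.9 on the second (21.7%), where all others were at −16.06 to 0.06. The sparse libraries include all controls and a single dimt-1 library, so sparseness follows RNAi in all but 1 library, and its part in the results was not tested. Results are therefore also given without dimt-1 replicate 3.

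The RNAi target was measured first. E02H1.1, the gene called dimt-1, was at 14.3, 6.74, 8.52 and 9.92 CPM in control replicates 1 to 4 and at 11.9, 12.19, 10.1 and 20.3 CPM in dimt-1 replicates 1 to 4. The groups overlapped and the dimt-1 libraries were not lower. Its log2 fold change was 0.46 ± 0.32 (SE; edgeR quasi-likelihood test, Benjamini-Hochberg adjusted p = 0.592), and an exact two-sided permutation test gave p = 0.257, where 4 against 4 cannot go below 0.0286. The level of this transcript in TRAP alone thus gives no check of the labels. In total RNA it was at 37.6, 41.6, 40.3 and 37.3 CPM in control and 28.7, 32.3, 39.1 and 26.05 CPM on dimt-1 RNAi. Replicates 1, 2 and 4 were below every control there and replicate 3 was at the control level. The log2 fold change in total RNA was −0.31 ± 0.12 (edgeR, adjusted p = 0.207), and without replicate 3 it was called lower, at −0.44 ± 0.10 (adjusted p = 0.0064). Whether RNAi acted in the lysate of replicate 3 was not tested. In the dafachronic acid pathway, daf-9, the cytochrome P450 that makes the hormone, was at 0 counts in all 8 TRAP libraries. Its nuclear receptor daf-12 was at 15.7, 15.2, 9.34 and 20.1 CPM in control and 9.39, 10.8, 8.08 and 12.03 CPM on dimt-1 RNAi, a log2 fold change of −0.58 ± 0.29 that did not pass the test (adjusted p = 0.46 in edgeR).

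In muscle ribosome-bound RNA, 8 genes were called between dimt-1 and control RNAi. Of the 8416 genes tested, 6 were called higher and 2 lower, meaning an adjusted p under 0.05, which is 0.0951% of the genes (0.0713% higher, 0.0238% lower). The risers were the cuticle collagens col-12, col-133 and col-147, the glutathione S-transferase gst-24, the major sperm protein gene msp-51 and T22B7.7. The genes that fell were pck-2 and pyc-1, which encode phosphoenolpyruvate carboxykinase and pyruvate carboxylase, enzymes on the route from pyruvate to glucose. At an unadjusted p under 0.05, 464 genes were higher and 534 lower, 11.9% of those tested, and the 2 groups of 4 libraries did not overlap for 7.06% of the genes (3.94% higher, 3.11% lower). These p-values measure the spread between the biological replicates. By DESeq2 the count was 146 (66 higher, 80 lower), and the 8 genes were among them. Without any single control library, or without dimt-1 replicate 4, edgeR called 0 genes, with 722 to 1090 at an unadjusted p under 0.05, and without dimt-1 replicate 3 it called 203. Pyc-1, T22B7.7 and msp-51 also lost their call without dimt-1 replicate 1, and pyc-1 without replicate 2. The fold changes moved less than the calls, with pck-2 between −1.32 and −0.997 and col-12 between 3.69 and 4.48 over all alternatives that tested them. The 17 genes that came next by p with separate groups, 7 higher and 10 lower, were not called here, and all 17 were called without replicate 3, with adjusted p from 0.0009 to 0.0391. They were chosen by p in these same libraries, so their calls without replicate 3, here and below, are no separate support.

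**Figure D1:**
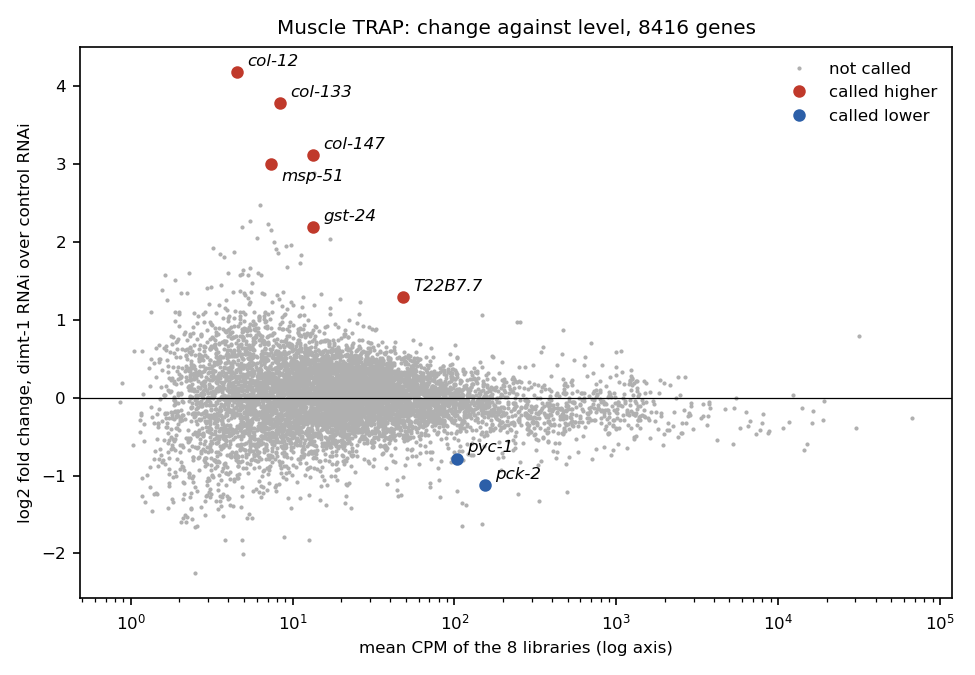
Log2 fold change of each of the 8416 genes tested in muscle TRAP (vertical axis, dimt-1 RNAi over control RNAi) against the mean CPM of the 8 libraries (horizontal log axis). The 6 genes called higher lie at mean levels under 100 CPM and the 2 called lower lie above 100 CPM, while grey points are the genes not called.

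The collagens gave the largest fold changes. Cuticle collagens are the structural proteins of the worm's outer coat, made in the hypodermis and renewed at each molt. Col-12 had 14, 20, 11 and 32 counts in the control libraries and 739, 236, 88 and 407 in the dimt-1 libraries, which is 0.32, 0.62, 0.30 and 0.65 CPM against 16.14, 5.05, 2.52 and 10.8 CPM. Every dimt-1 library was above every control library, and dimt-1 replicate 3 was the lowest of the 4. The log2 fold change was 4.18 ± 0.62 (edgeR, adjusted p = 0.00701). Of the windows of 100 bases in the col-12 transcript, 62.0% also occur in col-13, so the counts of these genes cannot be fully told apart.

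Col-133 was at 1.15, 0.37, 1.04 and 1.90 CPM in control and 22.3, 13.9, 2.46 and 23.6 CPM on dimt-1 RNAi. This is a log2 fold change of 3.79 ± 0.61 (edgeR, adjusted p = 0.012). Again the groups did not overlap and dimt-1 replicate 3 was nearest to the controls. Col-147 was at 3.44, 2.35, 3.77 and 1.47 CPM in control and 37.4, 14.7, 7.62 and 35.9 CPM on dimt-1 RNAi, with a log2 fold change of 3.12 ± 0.46 (edgeR, adjusted p = 0.00701) and with replicate 3 again the lowest dimt-1 library. Of its windows, 20.9% occur in col-146. In the WBcel235 genome col-12 lies on chromosome V from 10423898 to 10425198, col-147 on the same chromosome from 9632029 to 9633338 and col-133 on chromosome IV from 14098325 to 14099356.

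The rest of the family was mixed. Of 156 cuticle collagen genes matched, 41 were tested, 3 rose and 0 fell, and 26 had 0 counts in all 8 libraries. The median log2 fold change of the 41 was −0.09, where that of all genes tested was 0.00, and 24 of them were below 0. At the same time 7 of the 41 had separate groups on the higher side, against 3.94% of all genes, and 2 on the lower side. With other filters on low counts the median turned positive, to 0.46 with filterByExpr and 1.53 with no filter. The median of all genes was 0.05 and 0.18 under these filters. They also admit genes at 0 in the sparse libraries, which include all controls, so these medians are no support for a rise. Col-81 was at 87.8, 85.3, 94.0 and 115.6 CPM in control and 280.0, 152.2, 127.5 and 242.6 CPM on dimt-1 RNAi. Its groups did not overlap, but the log2 fold change of 1.07 ± 0.21 missed the threshold (edgeR, adjusted p = 0.067), while without replicate 3 it was 1.23 (adjusted p = 0.0009). The adult collagen gene col-140 had a log2 fold change of −0.49 ± 0.20 (adjusted p = 0.34), and without replicate 3 it was called lower, at −0.77 (adjusted p = 0.00958). As summed CPM, the family took 14287 to 16717 in control and 9951 to 17276 on dimt-1 RNAi, with dimt-1 replicate 3 at the upper end. The hypodermal collagens dpy-17 (log2 −0.92 ± 0.28, adjusted p = 0.193) and sqt-3 (−1.29 ± 0.41, adjusted p = 0.213) were not called. Of the 12 hypodermal markers 3 were tested, dpy-17 and sqt-3 among them. The list summed to 28.2 to 46.7 CPM in control and 19.1 to 35.8 CPM on dimt-1 RNAi. In control total RNA it summed to 129.8 to 154.5 CPM. The tissue source of the collagen signal was not tested.

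**Figure D2:**
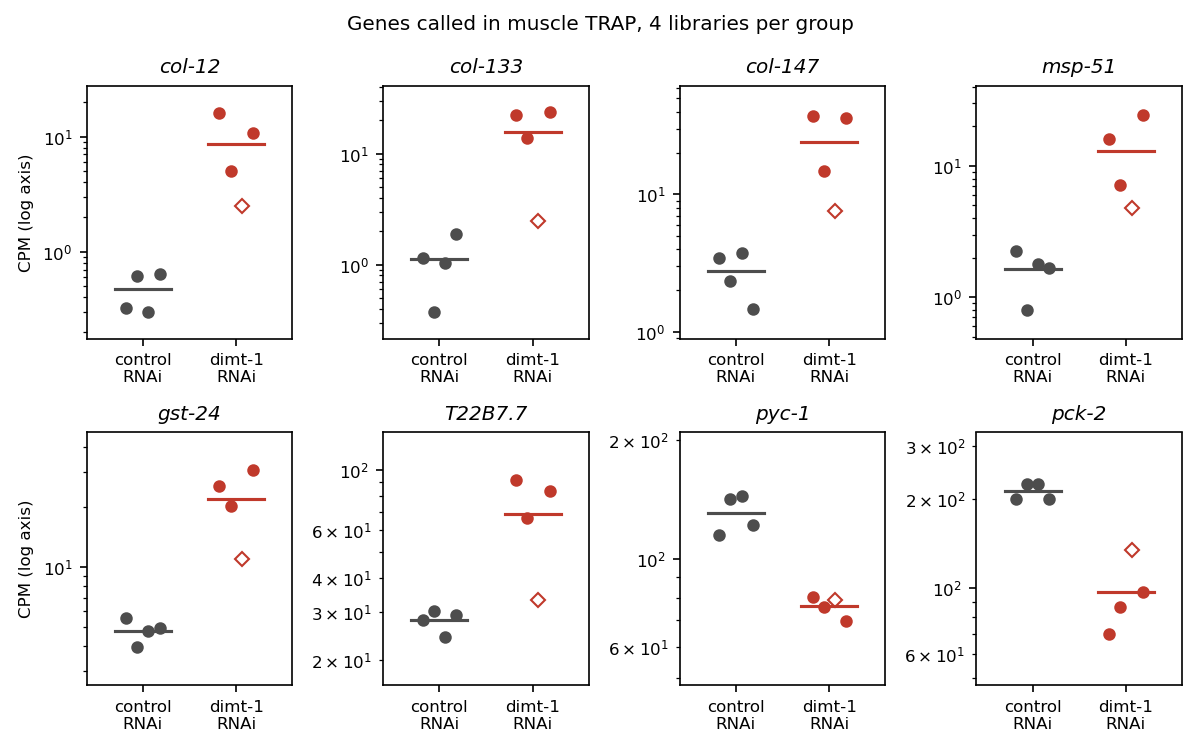
CPM on log axes of the 8 genes called in muscle TRAP, in each of the 4 control (grey) and 4 dimt-1 (red) libraries, with bars at the group means and dimt-1 replicate 3 as an open diamond. The groups do not overlap in any of the 8 panels, and replicate 3 is the dimt-1 library nearest to the controls in all panels but that of pyc-1, where it lies second nearest.

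Of the defence genes a single member rose. Gst-24, which encodes an enzyme that couples glutathione to reactive compounds, was at 5.55, 3.96, 4.75 and 4.92 CPM in control and 25.7, 20.3, 11.002 and 30.6 CPM on dimt-1 RNAi. Every dimt-1 library was above every control. That gave a log2 fold change of 2.19 ± 0.32 (edgeR, adjusted p = 0.00701). The other members of the oxidative and xenobiotic defence list did not follow it: of 33 tested, 1 rose and 0 fell, 26 were below 0 and the median was −0.28. At an unadjusted p under 0.05, 8 of the 33 were lower, which is to be read against 6.35% of all genes. Among them gsr-1, the glutathione reductase that regenerates glutathione, was at 58.4, 80.7, 79.9 and 73.3 CPM in control and 39.1, 38.8, 48.7 and 46.9 CPM on dimt-1 RNAi. Its groups did not overlap, with a log2 fold change of −0.75 ± 0.16 that was not called (edgeR, adjusted p = 0.0766) but passed without replicate 3, at −0.81 (adjusted p = 0.00985). The peroxiredoxin prdx-2 had a log2 fold change of −0.45 ± 0.15 (adjusted p = 0.254).

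T22B7.7 was at 27.996, 30.2, 24.2 and 29.4 CPM in control and 91.5, 66.1, 33.2 and 83.3 CPM on dimt-1 RNAi. Replicate 3 exceeded the highest control library by little, while the other dimt-1 libraries were far above. For this gene the log2 fold change was 1.29 ± 0.24 (edgeR, adjusted p = 0.0435). In control worms this gene was higher in TRAP than in total RNA, by 1.199 on the log2 scale, and gst-24 was near its whole-worm level (−0.11). The other risers were below their whole-worm level there, with log2 ratios of −3.57 for col-12, −3.20 for msp-51, −2.66 for col-133 and −1.66 for col-147. How much of their signal came from muscle was not tested.

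Pck-2 was at 199.3, 224.9, 223.3 and 199.6 CPM in control and 70.3, 86.3, 134.8 and 97.5 CPM on dimt-1 RNAi. The highest dimt-1 library, replicate 3, was below the lowest control. This was a log2 fold change of −1.12 ± 0.18 (edgeR, adjusted p = 0.012). Pyc-1 was at 115.4, 142.4, 144.1 and 121.9 CPM in control and 80.0, 75.8, 78.9 and 69.8 CPM on dimt-1 RNAi, with a log2 fold change of −0.78 ± 0.15 (edgeR, adjusted p = 0.0455). For this gene the dimt-1 libraries, replicate 3 included, lay close together, with 76.1 ± 4.60 CPM (SD, n = 4). Pck-2 lies on chromosome I from 7866136 to 7872100 and pyc-1 on chromosome V from 11817783 to 11822529.

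Several of the 10 genes that came next by p on the lower side act in metabolism. Icl-1 encodes the glyoxylate cycle enzyme of the worm, which lets acetyl units from fat enter sugar synthesis. It was at 459.7, 498.5, 401.9 and 373.7 CPM in control and 191.8, 284.4, 312.9 and 200.5 CPM on dimt-1 RNAi (log2 −0.81 ± 0.18; edgeR, adjusted p = 0.0795). The propionyl-CoA carboxylase subunit gene pccb-1 was at 583.3, 523.2, 468.5 and 566.6 against 323.0, 410.2, 284.4 and 234.5 CPM (log2 −0.77 ± 0.17; adjusted p = 0.0795). The groups did not overlap for either gene, and without replicate 3 both were called lower, icl-1 at −0.94 (adjusted p = 0.00496) and pccb-1 at −0.73 (adjusted p = 0.0391).

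Nuo-5, a subunit of respiratory complex I, was at 156.4, 141.7, 116.6 and 134.3 CPM in control and 79.3, 80.2, 101.1 and 80.4 CPM on dimt-1 RNAi (log2 −0.69 ± 0.15; edgeR, adjusted p = 0.0795). The carbonic anhydrase gene cah-4, which stood 2.54 above its whole-worm level in control TRAP on the log2 scale, was at 635.9, 647.6, 607.9 and 673.2 against 287.2, 421.9, 464.9 and 335.7 CPM (log2 −0.76 ± 0.16; adjusted p = 0.0766). Both pairs of groups were separate, and both genes passed without replicate 3, at −0.78 (adjusted p = 0.00723) and −0.88 (adjusted p = 0.00446). The short-chain dehydrogenase gene dhs-25, the reticulon gene ret-1 and the unnamed genes F23C8.5, F55B11.2 and T01D1.4 had log2 fold changes of −0.78, −0.78, −0.76, −1.12 and −1.37, with adjusted p from 0.0667 to 0.0795 in edgeR.

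As a group, the enzymes of glycolysis and the TCA cycle, which turn glucose into carbon dioxide and reducing power, were mostly lower without passing the test singly. Of 36 tested, 34 were below 0, with a median log2 fold change of −0.30, and 0 were called. At an unadjusted p under 0.05, 11 of the 36 were lower and 0 higher, where 6.35% of all genes were lower. Without replicate 3, 4 of the 36 were called lower, where 1.7% of all genes were: aldo-1, gpd-2, gpd-3 and dld-1. The glyceraldehyde-3-phosphate dehydrogenase gene gpd-3 was at 1595, 1640, 1218 and 1218 CPM in control and 749.2, 1022, 964.6 and 885.7 CPM on dimt-1 RNAi, with no overlap (log2 −0.65 ± 0.16; edgeR, adjusted p = 0.108; without replicate 3 −0.68, adjusted p = 0.0457). The aldolase gene aldo-1 (−0.46 ± 0.19) and the enolase gene enol-1 (−0.15 ± 0.15) were not called in all libraries (adjusted p = 0.351 and 0.734).

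The nuclear genes of the respiratory chain and ATP synthase had the same sign. Of 50 tested, 45 were below 0 with a median of −0.24, and 0 were called. Of the 50, 11 were lower at an unadjusted p under 0.05, where 6.35% of all genes were. Of 51 tested without replicate 3, nuo-5 and mev-1 were called lower, where 1.7% of all genes were. The ATP synthase subunit gene atp-2 had a log2 fold change of −0.24 ± 0.15 (edgeR, adjusted p = 0.558). The summed CPM of the list, 35011 to 46680 in control and 32745 to 39221 on dimt-1 RNAi, overlapped. For glycolysis and the TCA cycle the sums did not: 20136 to 25178 CPM in control and 16264 to 19671 CPM on dimt-1 RNAi. The mitochondrial ribosomal proteins, which translate the subunits encoded in mitochondrial DNA, had a median of −0.14 over 66 genes, of which 45 were below 0 and 0 were called; mrpl-41 had the lowest p (log2 −0.52 ± 0.18, adjusted p = 0.273). The listed names of the mitochondrial DNA genes matched no symbol, so these were taken by chromosome after the data were seen. Of the 12 protein-coding genes, 11 were tested, 10 were above 0 with a median of 0.40, and 0 were called. At an unadjusted p under 0.05, 6 of the 11 were higher, where 5.51% of all genes were. Without replicate 3, 2 were called higher, where 0.602% of all genes were. The summed CPM of the 12 genes was 3040 to 3217 in control and 3753 to 4858 on dimt-1 RNAi, with no overlap and with replicate 3 the lowest of the latter.

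**Figure D3:**
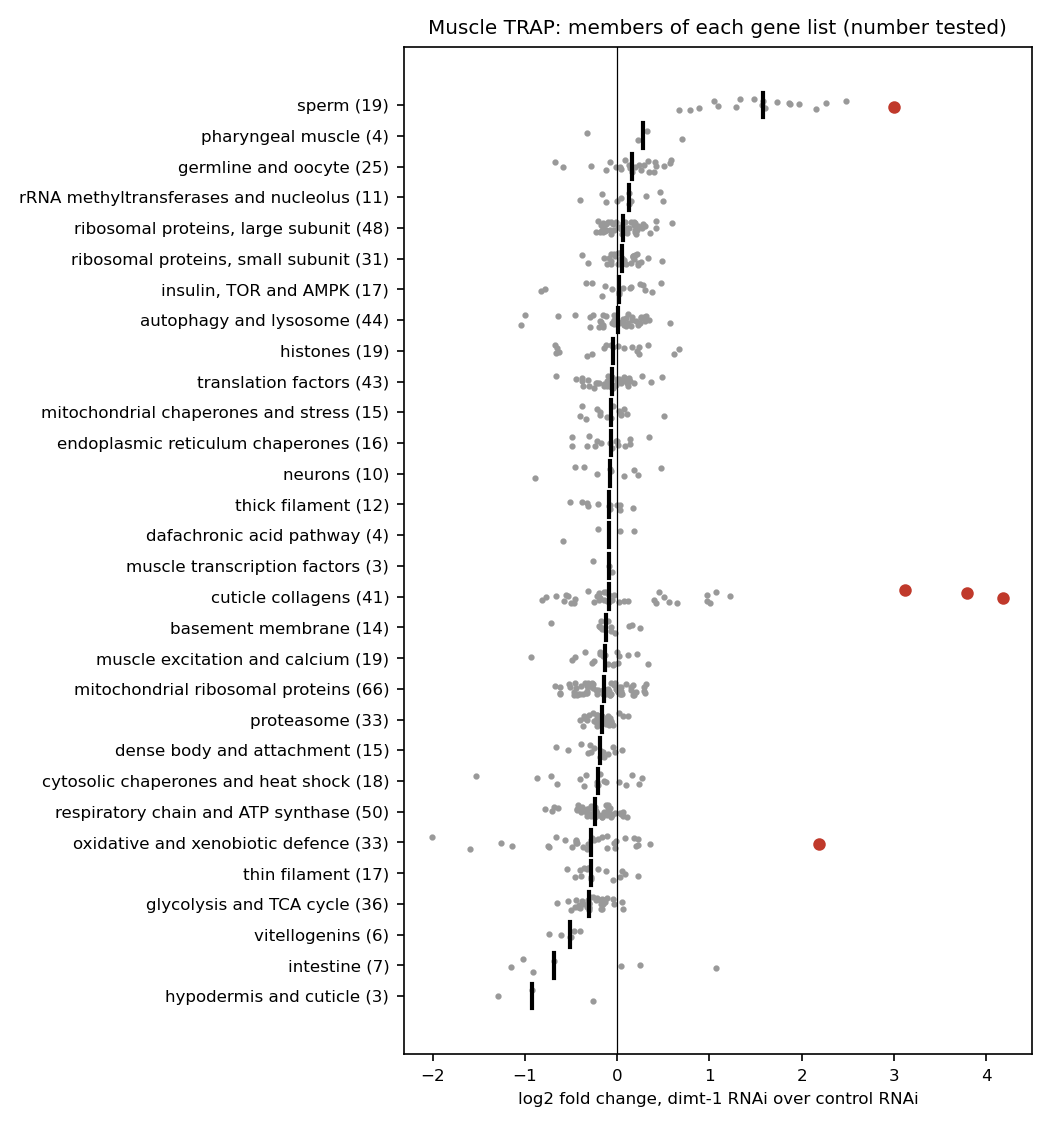
Log2 fold change in muscle TRAP (horizontal axis, dimt-1 RNAi over control RNAi) of each tested member of 30 gene lists, with black bars at the list medians, called members in red and the number tested in brackets. The sperm list lies to the right with a median of 1.58, and the lists of glycolysis, thin filament, vitellogenin, intestinal and hypodermal genes have the lowest medians, from −0.29 to −0.92.

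Sperm genes were higher in ribosome-bound RNA of the dimt-1 libraries. Major sperm proteins drive the crawling of nematode sperm and serve as a signal to oocytes, and they are made in the germline, not in muscle. Of 56 sperm genes matched, 19 were tested, all 19 were above 0 and the median log2 fold change was 1.58. At an unadjusted p under 0.05, 16 of the 19 were higher, where 5.51% of all genes were, and 1 was called. Msp-51 was at 2.25, 0.80, 1.80 and 1.65 CPM in control and 15.9, 7.18, 4.81 and 24.5 CPM on dimt-1 RNAi. Every dimt-1 library was above every control, and replicate 3 was the lowest of them. Its log2 fold change was 3.00 ± 0.52 (edgeR, adjusted p = 0.024).

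The other sperm genes named by rank were not called, with msp-40 at a log2 fold change of 1.86 ± 0.39 (edgeR, adjusted p = 0.0766), ssq-4 at 1.83 ± 0.38 (adjusted p = 0.0742) and msp-59 at 1.73 ± 0.42 (adjusted p = 0.104). All 3 were called higher without replicate 3, with adjusted p of 0.00892, 0.00362 and 0.00869. The list's summed CPM was 87.7 to 110.4 in control and 140.3 to 477.0 on dimt-1 RNAi, with replicate 3 the lowest of the latter, and 295.3 to 387.9 in control total RNA. In msp-51, 75.1% of the windows of 100 bases occur in 12 other genes, so the rise cannot be given to this copy alone. In total RNA the list had a median of 1.63. Of the 25 germline and oocyte markers, all tested, 19 were above 0. At an unadjusted p under 0.05, 5 were higher and 2, perm-2 and perm-4, were lower. Of all genes, 5.51% were higher and 6.35% lower at that threshold. Separate groups on the higher side were found for 6 of the 25, against 3.94% of all genes. The whole list summed to 34525 to 48139 CPM in control and 18912 to 40224 CPM on dimt-1 RNAi, with replicate 3 the highest of the latter. Without perm-2 and perm-4, which were lower, the sums were 3516 to 4535 CPM in control and 4343 to 5211 CPM on dimt-1 RNAi. The part of these markers in the sperm result was not tested.

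Genes of the contractile apparatus were abundant in the pull-down, and 0 of them were called. In the thick filament list, 9 of 12 genes were below 0 with a median of −0.08. Unc-54, the major body wall myosin heavy chain, was at 7025, 6940, 6014 and 6478 CPM in control and 4966, 5891, 4969 and 4437 CPM on dimt-1 RNAi. Its groups did not overlap, with a log2 fold change of −0.38 ± 0.15 (edgeR, adjusted p = 0.332). The myosin light chain genes mlc-2 and mlc-3 had log2 fold changes of −0.33 ± 0.17 and −0.32 ± 0.16 (adjusted p = 0.46 and 0.449).

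In the thin filament list, 13 of 17 tested genes were below 0 with a median of −0.29. Of the 17, 5 were lower at an unadjusted p under 0.05, where 6.35% of all genes were. The troponin C gene pat-10, which binds calcium to switch contraction on, was at 36951, 35865, 29200 and 34327 CPM in control and 26105, 32851, 19702 and 25328 CPM on dimt-1 RNAi, overlapping (log2 −0.39 ± 0.18; edgeR, adjusted p = 0.397). The actin gene act-2 was at 5281, 5779, 4253 and 4564 against 2700, 3491, 4037 and 3441 CPM, without overlap (log2 −0.54 ± 0.16; adjusted p = 0.193). Dense body and attachment genes, which anchor the filaments to the membrane, had 14 of 15 members below 0 and a median of −0.18, and pat-4, the integrin-linked kinase, had the lowest p (log2 −0.54 ± 0.16, adjusted p = 0.193).

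The excitation and calcium list had a median of −0.13 over 19 genes, with calsequestrin csq-1 at −0.34 ± 0.15 (edgeR, adjusted p = 0.397) and syntrophin stn-1 at −0.93 ± 0.35 (adjusted p = 0.305). The list of muscle transcription factors had 3 tested members and a median of −0.09. In total RNA the medians of the thick filament, thin filament, dense body and excitation lists were 0.20, 0.11, 0.09 and 0.18, on the other side of 0, but no gene of any list was called for a difference between TRAP and total RNA.

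The translation machinery moved little. The small-subunit ribosomal proteins had a median log2 fold change of 0.05 over 31 genes and the large-subunit proteins 0.06 over 48, and 0 members of either were called. Rpl-39 was at 282.0, 289.6, 270.1 and 254.1 CPM in control and 389.0, 369.4, 376.1 and 520.2 CPM on dimt-1 RNAi, without overlap (log2 0.59 ± 0.15; edgeR, adjusted p = 0.12). Rps-28 was at 465.0, 512.5, 448.7 and 402.2 against 598.4, 583.3, 548.7 and 820.6 CPM, also separate (log2 0.48 ± 0.16; adjusted p = 0.24). Both encode short ribosomal proteins. Among 43 translation factors the median was −0.05, and eif-2alpha, whose phosphorylation slows initiation, had the lowest p (log2 0.49 ± 0.16, adjusted p = 0.213). The rRNA methyltransferase and nucleolus list, 11 genes with E02H1.1 among them, had a median of 0.13, and ncl-1, a repressor of nucleolar size, was at 0.50 ± 0.15 (adjusted p = 0.204).

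Protein quality control genes were mostly below 0. Of 33 proteasome genes, 30 were below 0 with a median of −0.17, and pbs-1, a subunit of the catalytic core, had a log2 fold change of −0.41 ± 0.18 (edgeR, adjusted p = 0.388). Cytosolic chaperones had a median of −0.21 over 18 genes, with hsp-25 at −0.40 ± 0.16 (adjusted p = 0.346) and hsp-12.2 at −0.71 ± 0.26 (adjusted p = 0.305). Endoplasmic reticulum chaperones (16 genes, dnj-7 at −0.48 ± 0.19) and mitochondrial chaperones (15 genes, hsp-75 at 0.51 ± 0.16) both had a median within 0.1 of 0. For insulin, TOR and AMPK genes the median was 0.02 over 17 genes, with akt-2, a kinase of the insulin pathway, at −0.78 ± 0.37 (adjusted p = 0.412). Autophagy and lysosome genes had a median of 0.01 over 44 genes, and basement membrane genes, which muscle secretes, −0.12 over 14. No member of these 7 lists was called.

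Among the higher genes that came next by p, rncs-1, a noncoding RNA that inhibits Dicer, was at 13.2, 8.59, 11.3 and 12.99 CPM in control and 31.1, 22.3, 20.6 and 37.5 CPM on dimt-1 RNAi (log2 1.28 ± 0.25; edgeR, adjusted p = 0.0667). The snapin gene snpn-1 was at 17.8, 10.8, 20.5 and 16.9 against 34.1, 33.6, 35.3 and 36.03 CPM (log2 1.07 ± 0.21; adjusted p = 0.0667). F54D5.9 was at 21.8, 17.6, 15.1 and 21.02 against 33.0, 33.6, 42.4 and 34.7 CPM (log2 0.93 ± 0.20; adjusted p = 0.0766). In these 3 genes the groups were separate and, unlike in the called risers, replicate 3 was not far from the other dimt-1 libraries, being the lowest for rncs-1, near the top for snpn-1 and the highest for F54D5.9. All 3 passed without replicate 3, with adjusted p of 0.00289, 0.0122 and 0.0318. The C-type lectin gene clec-41 had a log2 fold change of 1.33 ± 0.27 (adjusted p = 0.0709).

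With dimt-1 replicate 3 left out, edgeR called 203 of 8806 genes, 53 higher and 150 lower, or 2.31%. The 8 genes called in all libraries were among them. Of the 203, 198 were tested in all 8 libraries, each with the same sign there, and in 120 of the 203 replicate 3 was within the control range or beyond it on the side away from the change. As a description with no test, the median log2 ratio to the control mean was 0.46 in replicate 3 and 1.52 in the other dimt-1 libraries for the genes called higher, and −0.14 and −1.03 for those called lower. The genes were chosen on the same control libraries, which alone can shift replicate 3 in the direction of the call.

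**Figure D4:**
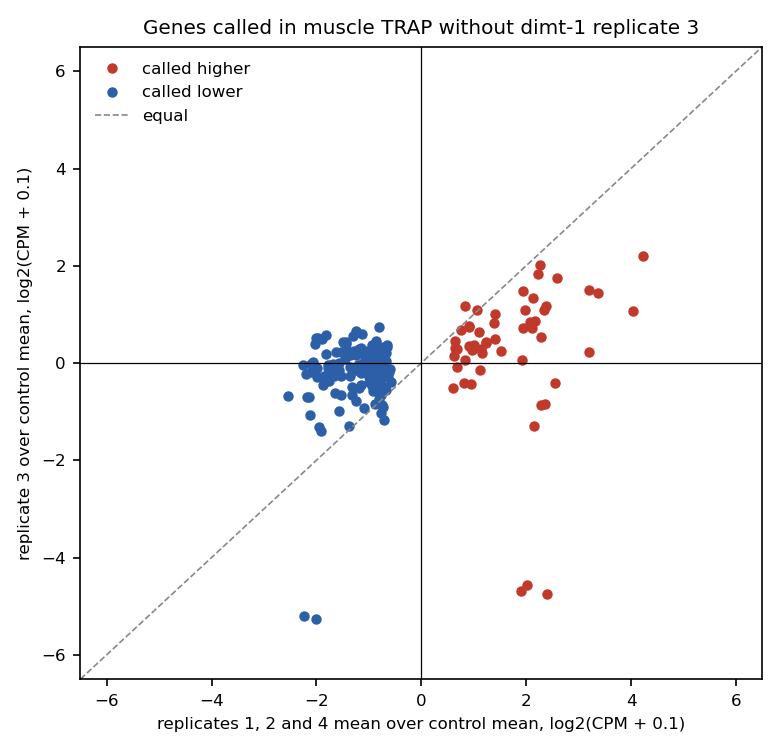
Each of the 203 genes called in muscle TRAP without dimt-1 replicate 3, with the log2 ratio of dimt-1 replicates 1, 2 and 4 to the control mean on the horizontal axis and that of replicate 3 on the vertical axis, on the log2(CPM + 0.1) scale. Most points lie closer to 0 on the vertical axis, and the 5 points below −4 are genes at or near 0 in replicate 3.

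The yolk genes fell in this smaller set. All 6 vitellogenins, the yolk proteins that the intestine makes for oocytes, were called lower without replicate 3, and 0 with it. Of all genes, 1.7% were called lower without replicate 3. Vit-1 was at 970.0, 1105, 1400 and 1137 CPM in control and 596.8, 544.6, 1049 and 582.2 CPM on dimt-1 RNAi. Replicate 3 was at the control level and the others were well below it. The log2 fold change was −1.004 ± 0.16 without it (edgeR, adjusted p = 0.00116) and −0.73 ± 0.20 with it (adjusted p = 0.15). The yolk genes were lower in whole-worm total RNA as well, with a median of −0.54 without replicate 3. Vit-1 was called lower there, at −0.796 ± 0.08 (edgeR, adjusted p = 1.63e-06). The cathepsin B-like protease gene cpr-1 was at 71.6, 106.3, 109.5 and 102.0 against 23.02, 36.01, 91.2 and 25.4 CPM, with −1.79 ± 0.20 without replicate 3 (adjusted p = 6.99e-05). The aspartyl protease gene asp-1 (−1.04), the eggshell genes perm-2 (−0.85) and perm-4 (−1.003), the linker histone gene hil-2 (−1.07), the collagen sqt-3 (−1.78), the autophagy gene epg-2 (−1.198) and aldo-1 (−0.66) also fell in this set, with adjusted p of 0.0455 or less in edgeR. The intestinal markers, 10 of 11 tested in this set, gave 1 called higher and 2 lower, where 0.602% of all genes were called higher and 1.7% lower. These markers summed to 645.7 to 810.4 CPM in control and 360.8 to 747.1 CPM on dimt-1 RNAi, with replicate 3 at the top of the latter. Their part in the fall of the yolk genes was not tested.

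The genes named by fold change among those that fell were efn-4 (log2 −2.57 ± 0.40; edgeR, adjusted p = 0.00112), an ephrin, C39D10.7 (−2.25), F54F7.2 (−2.19), tbh-1 (−2.18), B0513.4 (−2.13), ule-3 (−2.11), sdz-27 (−2.104) and T04G9.7 (−2.06), with adjusted p from 1.48e-05 to 0.0431. C39D10.7 was at 479.0, 545.4, 441.4 and 447.3 CPM in control and 45.2, 174.5, 466.9 and 79.4 CPM on dimt-1 RNAi. Tbh-1, the enzyme that makes octopamine from tyramine, was at 179.4, 192.5, 134.5 and 166.6 against 15.3, 67.96, 104.1 and 27.7 CPM. In C39D10.7 replicate 3 lay among the controls, and in tbh-1 it lay between the groups. Both genes were lowest in dimt-1 replicates 1 and 4, the 2 libraries in which the 3 called collagens, gst-24 and msp-51 were highest.

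Of the 53 risers of the smaller set, 15 were on the cuticle collagen or sperm lists and 38 were on neither. The sperm list is not complete, and the 38 include sperm genes outside it. F08G2.5 had a log2 fold change of 3.25 ± 0.52 (edgeR, adjusted p = 0.0012). Of 43 collagens tested, 8 were called higher and 6 lower. Of 20 tested genes of the sperm list, 7 were called higher and 0 lower. Of all genes, 0.602% were called higher and 1.7% lower. Msp-50 (2.63), the sperm chromatin gene spch-1 (2.59) and C10G11.8 (2.43) were named by rank, with adjusted p from 0.00112 to 0.0109. The pharyngeal myosin gene myo-1 (0.95 ± 0.24, adjusted p = 0.0477) and rpl-39 (0.64 ± 0.15, adjusted p = 0.0325) passed as well. Of the thick and thin filament, dense body, excitation and muscle transcription factor lists, 0 genes were called in this set either. With a minimum of 100 counts, an alternative chosen after the data were seen, 194 genes were called without replicate 3, of which 171 were shared with the 203.

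Total RNA of the whole-worm lysates gives the worm's change beside that of muscle. In total RNA 0 of 12676 genes were called by edgeR, with 2279 at an unadjusted p under 0.05, and 617 by DESeq2. The risers of muscle TRAP had log2 fold changes of 2.98 (col-12), 3.20 (col-133), 3.08 (col-147), 2.61 (gst-24), 1.6004 (msp-51) and 1.61 (T22B7.7) in total RNA, each with an adjusted p of 0.078. Pck-2 was at −0.44 ± 0.15 and pyc-1 at −0.21 ± 0.07 (adjusted p = 0.162 and 0.159). Without replicate 3, total RNA gave 2372 called genes (18.5%, with 8.63% higher and 9.88% lower), and of the 203 genes called in TRAP without it, 172 were called there in the same direction. TRAP and total RNA of a replicate number are not independent where they come from 1 lysate.

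The test of the difference itself, the RNAi effect in TRAP minus that in total RNA, called 0 of 8324 genes in edgeR, with 599 at an unadjusted p under 0.05 and 8 genes called by DESeq2. For the 8 genes called in TRAP the difference ranged from −0.70 ± 0.25 (pck-2) to 1.39 ± 0.66 (msp-51), with adjusted p of 0.5 or more. The smallest of these adjusted p was that of pyc-1, with a difference of −0.59 ± 0.14. Snpn-1 and F54D5.9 had differences of 0.84 ± 0.21 and 0.78 ± 0.18, at the same adjusted p of 0.5, and total RNA changes of 0.22 and 0.14. These values do not show that the change was equal in both kinds of RNA.

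**Figure D5:**
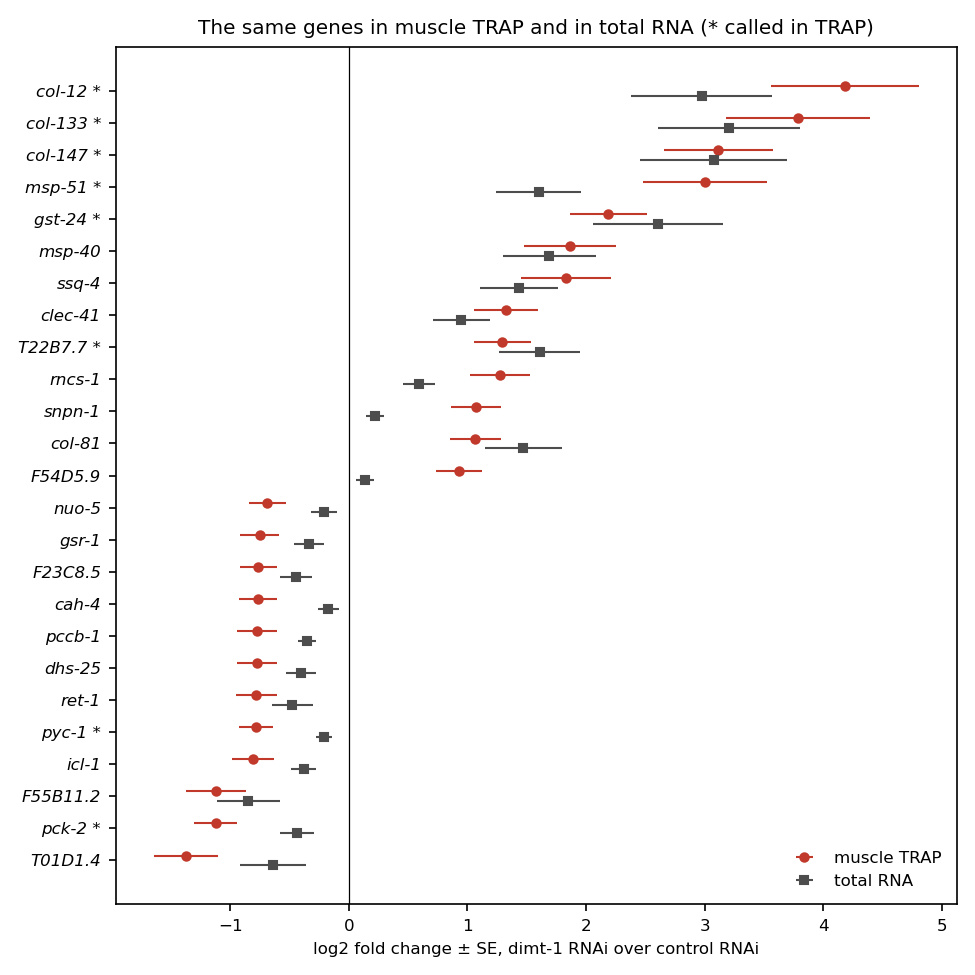
Log2 fold change with its standard error (horizontal axis, dimt-1 RNAi over control RNAi) in muscle TRAP (red circles) and in total RNA (grey squares) for the 8 called genes, marked with an asterisk, and the 17 genes that follow by p. All 25 genes have the same sign in both, and the genes that were lower in TRAP, such as pck-2 at −1.12 and −0.44, lie nearer to 0 in total RNA.

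Without replicate 3, 2 of 8701 genes (0.023%) were called for this difference, both lower in TRAP than in total RNA. Top-1, DNA topoisomerase I, was at 165.8, 211.3, 172.3 and 192.6 CPM in control TRAP and 100.2, 83.5, 279.7 and 70.2 CPM on dimt-1 RNAi, and at 348.3 to 388.2 CPM in all 8 total RNA libraries. Iffb-1, the worm's initiation factor 5B, which joins the ribosomal subunits, was at 326.7, 374.5, 274.8 and 297.6 against 142.9, 122.6, 467.1 and 122.2 CPM in TRAP. In total RNA iffb-1 was at 327.8, 355.4, 308.8 and 354.5 CPM in control and 284.6, 259.2, 376.3 and 293.2 CPM on dimt-1 RNAi. There too replicates 1, 2 and 4 were below every control. In TRAP, dimt-1 replicates 1, 2 and 4 were below every control and replicate 3 above every control for both genes. The differences were −1.16 ± 0.16 and −1.05 ± 0.16 without replicate 3 (edgeR, adjusted p = 0.0127 and 0.0201) and −0.51 and −0.44 with it (adjusted p = 0.807 and 0.854).

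How many genes could be tested depended on the sparse libraries. Of 16341 genes with 10 or more counts in at least 1 TRAP library, 7925 were left out because some library was below 10, although the tested genes held 99.1 to 99.6% of the counts. Left out were 1382 genes that reached 10 in all dimt-1 libraries but not in all controls and 442 with the reverse, 390 of these through replicate 3 alone. Among the 1382, 60 genes had 10 or more counts in all 4 dimt-1 libraries and 0 in all 4 controls, and 0 genes had the reverse. Their counts were low, with medians of 30, 23.5, 66 and 24 in dimt-1 replicates 1 to 4. The collagens col-137 (98, 50, 70 and 80 counts) and col-138 (102, 10, 56 and 98), named after their values were seen, were among the 60. Even among tested genes the spread was wide at low levels: the median SD of log2 CPM between control libraries was 0.72 in the 2104 genes of lowest level and 0.20 in the 2104 of highest level.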

How the data were processed

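The authors deposited raw counts per gene, and the muscle TRAP and total RNA columns were used as deposited. Per the labels, polyA RNA was made into stranded TruSeq libraries, and the submitters' processing notes name STAR 2.7.2b; how these libraries were counted, and whether by strand, is not given in the sources used here. Most counts from 1 to 20 were even (78.1 to 90.0% per TRAP library), and counts divided by 2 were an alternative. Groups came from the labels, columns from the library names. Genes with 10 or more counts in every library were tested with edgeR 4.0.16 (TMM, glmQLFit, glmQLFTest, R 4.3.3) with Benjamini-Hochberg adjustment over all of them, and called at an adjusted p under 0.05. The SE is the log2 fold change divided by the square root of the F statistic. Errors of CPM are SD. The difference from total RNA is the fraction by RNAi interaction over 16 libraries. DESeq2 1.42.0 and limma 3.58.1 (voom) were alternatives. Named genes were E02H1.1, daf-9 and daf-12, up to 12 genes per direction with separate groups and a mean CPM of 5 or more (called ones by fold change, then by p), up to 8 per direction without dimt-1 replicate 3, and from each list the called members, those of highest CPM and that of lowest p. Members named for their CPM alone are not all printed. Top-1, iffb-1, col-137, col-138, gpd-2, dld-1, mev-1 and pos-1 were named after their values were seen. Members and lists were chosen with earlier results of these data known. Gene symbols and positions are from the Ensembl WBcel235 annotation, in which 43693 of 46748 identifiers matched, and the windows of 100 bases were compared between its transcripts on the RefSeq genome sequence. The germline libraries were not analysed here.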

Additional observations from a re-analysis of the deposited data

Results flagged for a closer look

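Among 96 groups of 4 libraries whose lowest or highest value was set against the rest, 10 had a library apart from the others. The threshold is passed by about 1 in 20 groups that are independent and not chosen by their values. These genes were named from the same data, top-1 and iffb-1 after their values were seen, so the 10 cannot be set against that rate. In dimt-1 replicate 3 these were 36218 genes at 0, 204 genes with 1 to 20 counts, nuo-5 at 101.1 CPM, top-1 at 279.7 CPM, iffb-1 at 467.1 CPM and vit-1 at 1049 CPM. In dimt-1 replicate 2 the summed CPM of the thick filament genes was 43235 and that of the thin filament genes 136650, both above the other dimt-1 libraries, and 36257 genes were at 0 in control replicate 2. In dimt-1 replicate 4, rpl-39 was at 520.2 CPM, above the other 3.

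The effect of RNAi differed between TRAP and total RNA for top-1 (by −1.16 on the log2 scale) and iffb-1 (by −1.05) once dimt-1 replicate 3 was left out, by edgeR's interaction test. Outside the tested genes, 60 genes had 10 or more counts in all dimt-1 TRAP libraries and 0 in all control libraries.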

How the results depend on the processing

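Against 8 called genes (6 higher, 2 lower), edgeR called 0 with its filterByExpr filter (976 of 12164 genes at an unadjusted p under 0.05, DESeq2 calling 146 on the main filter), 2 with a minimum of 100 counts, 1 with 500, 177 (82 higher, 95 lower) without a filter, 4 with counts divided by 2 and 8 with DESeq2's size factors. Scaling by library size only moved the median of all genes to 0.14 and gave 26 called genes, of which 25 were higher and 1 lower. DESeq2 called 146 and limma voom with library quality weights 275 (76 higher, 199 lower). Leaving out 1 library gave 0 to 203 called genes, with 0 without each control library and without dimt-1 replicate 4, 5 without replicate 1, 28 without replicate 2 and 203 without replicate 3. The minimum of 100 counts without dimt-1 replicate 3, chosen after the data were seen, gave 194. The 4 same-number correlations of deviations ran from −0.043 to 0.029, with all tested genes, noisy low ones included, weighing the same. They showed no pairing by replicate number but cannot show that no preparation was shared. With the replicate block 36 genes were called (12 higher, 24 lower).

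In total RNA, against 0, the count was 346 without a filter, 113 by library size, 617 in DESeq2, 1676 in limma voom, 3 with the replicate block and 1777 with a minimum of 100 counts and without dimt-1 replicate 3, and leaving out 1 lysate gave 0 to 2372. For the difference it was 8 in DESeq2 and 2 with a minimum of 100 counts without dimt-1 replicate 3, and leaving out 1 lysate gave 0 to 2. The sign of the 8 called genes held in every alternative that tested them. Rpl-22, at −0.12, turned to 0.017 with library size only. E02H1.1 was not called in muscle TRAP in any alternative. Of the list medians under the alternatives, 559 moved by less than the spread between libraries and 28 by more. The cause of these shifts was not tested. Precision is limited at low counts, where the control libraries are sparse.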

Other observations

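Among 79 ribosomal protein genes, the log2 ratio of TRAP to total RNA in control worms had a median of −0.81, and rpl-22 (2.13, with 5587 CPM in TRAP and 1274 CPM in total RNA) and rpl-41.1 (3.45, with 1116 and 102.1 CPM) stood above the third, rpl-25.1 (0.64). Rpl-22 was at 5759, 6285, 4747 and 5555 CPM in the control and 4484, 5516, 4961 and 5533 CPM in the dimt-1 TRAP libraries, a log2 fold change of −0.12 ± 0.15 (edgeR, adjusted p = 0.788). The ribosomal protein that carries the tag is not named in the labels.

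In the germline and oocyte list the median was 0.16 over 25 genes, with 0 called in all libraries. Without dimt-1 replicate 3, pos-1 was called higher and perm-2 and perm-4 lower, where 0.602% of all genes were called higher and 1.7% lower. The nanos gene nos-2 had the lowest p, with a log2 fold change of 0.59 ± 0.16 (adjusted p = 0.137) and separate groups. Histone genes had a median of −0.05 over 19 tested and neuronal genes −0.08 over 10, where unc-18, which acts in synaptic vesicle release, had a log2 fold change of −0.89 ± 0.32 (adjusted p = 0.292).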
